A study of Homo sapiens with 6 samples.

Results

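The genes described here encode subunits of voltage-gated calcium channels: CACNA1A, CACNA1B, CACNA1C, CACNA1D, CACNA1E, CACNA1G, CACNA1H, CACNA2D1, CACNA2D2 and CACNA2D4. They are 10 of the 61661 identifiers in the deposited table of read counts, found there by their Ensembl identifiers. They were chosen because several of them ranked high in shMETTL3 cells within lists of MAPK pathway genes, at low read counts. They were thus selected on measured values, the ranks of the shMETTL3 against the shCTR libraries, and the values of that contrast are given as a description, without a test. No threshold of rank or count came with the choice.

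RNA-seq was done on K562 cells, an established human leukemia line from a chronic myeloid leukemia in blast phase, with 2 libraries in each of 3 groups. The shCTR cells carried a lentiviral vector with a nonsense sequence, and the shMETTL3 cells carried a lentiviral shRNA against METTL3, in vectors that also encode GFP and puromycin resistance. The shMETTL14 group is known from the submitters' labels alone, and its vector is not described in the sources used here. The shCTR and shMETTL3 cells are each 1 stable line, and nothing states that the 2 libraries of a group came from separate cultures, so the spread between them may be technical. METTL3 and METTL14 form the enzyme pair that writes m6A, a methyl mark on adenosines of mRNA.

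A voltage-gated calcium channel is built around a pore-forming alpha1 subunit, which senses membrane voltage and lets calcium into the cell. An alpha2delta subunit outside the membrane and a beta subunit inside it help the channel reach the surface and tune its opening. These channels are best known in neurons, muscle and endocrine cells, where calcium entry starts transmitter release, contraction or secretion. Lists of MAPK signaling genes commonly hold them, since calcium entry can feed into Ras and ERK. In a bulk library, fewer cells that express a gene and less RNA per cell cannot be told apart.

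The libraries held between 19292574 and 20115304 reads. METTL3 had 1788 and 1728 reads in shCTR, 1031 and 938 in shMETTL3 and 1731 and 1498 in shMETTL14, a log2 fold change of −0.87 (SE 0.0783, edgeR adjusted p = 3.44e-07) in shMETTL3 against shCTR. METTL14 had 656 and 655 reads in shCTR, 752 and 710 in shMETTL3 and 375 and 404 in shMETTL14, a log2 fold change of −0.76 (SE 0.0886, edgeR adjusted p = 1.4e-05) in shMETTL14 against shCTR. Each targeted gene was therefore lower in its own knockdown. All 12 genes of an erythroid K562 list were detected, and their summed level was 1800 and 1810 CPM (reads scaled by library size and TMM factor) in shCTR, 2020 and 2020 in shMETTL3 and 1820 and 1830 in shMETTL14. In shMETTL3, 6 of the 12 were called higher and 1 lower, among them the globin genes HBZ (log2 fold change 1.02) and HBE1 (0.96), and the part of this shift in the channel values was not tested.

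The letters GGACT are a common form of the sequence in which METTL3 and METTL14 methylate adenosine, so 1 coding occurrence is shown for each of the 4 channel genes with enough reads to test. Each is the occurrence nearest the stop codon whose 29-base window lies within 1 coding exon of the gene's longest GENCODE release 29 transcript (GRCh38), printed 5′ to 3′ on the transcript's strand with GGACT in capitals. The windows lie at chr19:13299052-13299080 (minus strand, exon 19 of 47) for CACNA1A, chr17:50618048-50618076 (plus strand, exon 29 of 36) for CACNA1G, chr16:1220607-1220635 (plus strand, exon 35 of 35) for CACNA1H and chr3:50366583-50366611 (minus strand, exon 30 of 38) for CACNA2D2.
CACNA1A: gcagcgcgccgaGGACTtcctcaggaaac
CACNA1G: gtggggaacctgGGACTtctcttcatgtt
CACNA1H: cacgcctcacagGGACTccctggagccca
CACNA2D2: ccactgtgagatGGACTgcgaggttaaca
The CACNA2D2 transcript held 11 such letters (7 coding, 4 after the stop codon), CACNA1G 10 (9 coding), CACNA1A 9 (6 coding, 3 after the stop codon) and CACNA1H 4 (all coding). Per kb that was 2.01, 1.23, 1.04 and 0.49, and the median of the tested genes was 0.91. Of the transcripts of tested genes, 86.4% held GGACT, including all 4 of these. Methylation itself was not measured in these libraries.

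The 10 genes together had 539 reads in all 6 libraries, and 273 of these (50.6%) belonged to CACNA2D2. Their summed reads were 56 and 61 in shCTR, 139 and 113 in shMETTL3 and 77 and 93 in shMETTL14. As CPM without the TMM factor, the sum was 2.78 and 3.12, 7.2 and 5.75, and 3.92 and 4.73. Both shMETTL3 libraries lay above both shMETTL14 libraries, which lay above both shCTR libraries. CACNA2D2 made up 64.3% and 59% of the sum in shCTR, and 45.3% and 41.6% in shMETTL3. The filter on low counts left 4 genes for testing, CACNA1A, CACNA1G, CACNA1H and CACNA2D2, with 90% of the reads. CACNA1A and CACNA1G passed it through the shMETTL3 libraries alone, since neither reached the filter in a fit of shCTR and shMETTL14 only. The other 6 genes had 54 reads in all, and 32 of their 36 values were at or under 3 reads, taken as the floor.

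**Figure D1:**
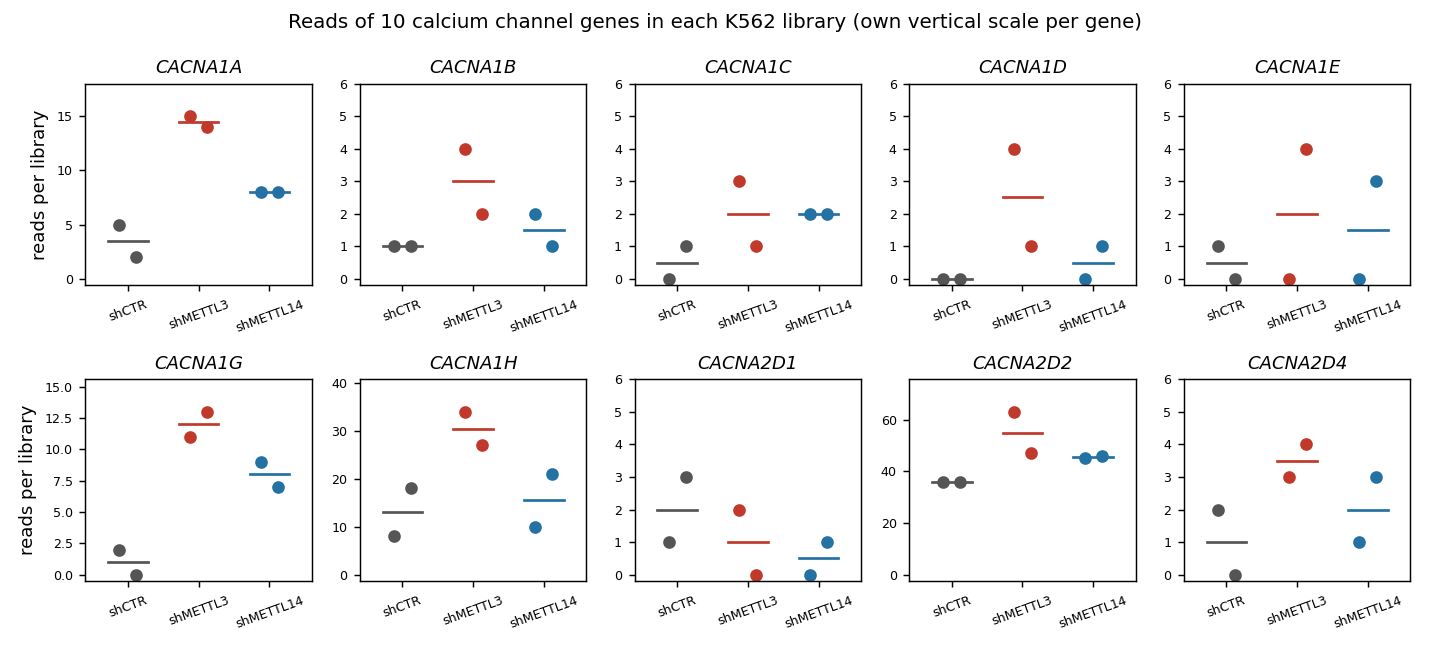
Reads per library (vertical axis, a separate scale for each gene) of the 10 calcium channel genes, with 1 point per library and a line at the mean of each group. CACNA2D2 and CACNA1H held most reads, CACNA1G had 2 and 0 reads in shCTR, and no value of CACNA1B, CACNA1C, CACNA1D, CACNA1E, CACNA2D1 or CACNA2D4 exceeded 4 reads.

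For 7 of the 10 genes, both shMETTL3 libraries lay above both shCTR libraries in reads and in CPM, and for none did both lie below. Among the 36141 Ensembl genes with at least 1 read, 18.1% lay above in this way, and among the genes that passed the filter 28.2% did. This contrast chose the genes, and nothing is read from the count. Both shMETTL14 libraries lay above both shCTR libraries for 4 of the 10 genes (CACNA1A, CACNA1C, CACNA1G and CACNA2D2), where 15.2% of the Ensembl genes did, and for none did both lie below. The shCTR libraries are common to both knockdowns and were used in choosing the genes, so these 4 do not stand apart from the choice. Both shMETTL3 libraries lay above both shMETTL14 libraries for 3 of the 10, CACNA1A, CACNA1G and CACNA1H, where 17.5% of the Ensembl genes did.

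No member passed the threshold in shMETTL14 against shCTR: edgeR called 0 of the 4 tested genes, with 1 (CACNA1G) at an unadjusted p under 0.05, and DESeq2 also had 1 at an unadjusted p under 0.05. DESeq2 gave an adjusted p to CACNA2D2 alone (0.77) and none to CACNA1A, CACNA1G and CACNA1H, so its count of 0 calls says nothing about those 3. Of all 17686 genes tested in this comparison, 3.43% were called higher and 3.26% lower. The shCTR libraries were used in choosing the genes, and CACNA1A and CACNA1G passed the filter through the shMETTL3 libraries alone. The members' p-values in this comparison are thus not independent of the choice, and no support is drawn from them. Without the filter on low counts all 10 could be tested, and again 0 were called, where 766 of the 37080 genes tested were. The 6 genes added in this way had 54 reads in all and at most 4 in a library. A call was hardly attainable for them, so this 0 says nothing about those 6.

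The T-type channels CACNA1G and CACNA1H open at small depolarizations, and are known from pacemaking neurons and heart cells. CACNA1G (chr17:50561068-50627474, plus strand) had 2 and 0 reads in shCTR, 11 and 13 in shMETTL3 and 9 and 7 in shMETTL14. Every library of either knockdown lay above both control libraries, and both control values were at or under the floor. Its level was 0.0506 ± 0.0716 CPM in shCTR, 0.604 ± 0.0622 in shMETTL3 and 0.408 ± 0.0714 in shMETTL14 (SD, n = 2 each). Per library size, shMETTL3 had 12.2 times the reads of shCTR (24 against 2 reads) and shMETTL14 had 8.07 times (16 against 2 reads, 95% exact counting interval 1.9 to 72.4). Such an interval covers counting error only. In shMETTL14 against shCTR the fitted log2 fold change was 2.84 (SE 0.894), which did not pass the threshold (edgeR adjusted p = 0.063, unadjusted p = 0.00483, DESeq2 unadjusted p = 0.0256). The control libraries were used in choosing CACNA1G, and it passed the filter through shMETTL3 alone, so these p-values are not independent of the choice. Over the alternatives that gave CACNA1G an adjusted p, it ran from 0.0507 to 0.35. The fitted value rests on the 2 control reads: it was 1.94 to 6.02 when 1 library was left out, the highest without shCTR replicate 1, which leaves a control of 0 reads. In shMETTL3 against shCTR the fitted value was 3.4 (SE 0.823). Between the knockdowns, shMETTL3 minus shMETTL14, it was 0.56 (SE 0.538). The shMETTL3 libraries entered the choice of the genes, so this contrast too is a description for every member.

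CACNA1H (chr16:1153121-1221772, plus strand) had 8 and 18 reads in shCTR, 34 and 27 in shMETTL3 and 10 and 21 in shMETTL14. Both shMETTL3 libraries were the highest, while the shCTR and shMETTL14 libraries interleaved. Its level was 0.673 ± 0.379 CPM in shCTR, 1.54 ± 0.272 in shMETTL3 and 0.79 ± 0.398 in shMETTL14 (SD, n = 2 each). The log2 fold change was 1.19 (SE 0.419) in shMETTL3 against shCTR, and 0.95 (SE 0.405) in shMETTL3 against shMETTL14. With 1 library left out the first ran from 0.7 (without shCTR replicate 1) to 1.91 (without shCTR replicate 2), and the second from 0.52 (without shMETTL14 replicate 1) to 1.58 (without shMETTL14 replicate 2). In shMETTL14 against shCTR it was 0.24 (SE 0.47, 95% interval −0.75 to 1.22, edgeR adjusted p = 0.83), and it took either sign when 1 library was left out, from −0.39 to 0.95. The 2 control libraries differed from each other by more than the 2 group means did, and a change in shMETTL14 was not detectable at this depth.

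The third T-type gene, CACNA1I, was not among the 10. It had 89 and 87 reads in shCTR, 116 and 125 in shMETTL3 and 78 and 77 in shMETTL14, more in every library than CACNA1G and CACNA1H together. Its log2 fold change was 0.42 (SE 0.173, edgeR adjusted p = 0.102) in shMETTL3 and −0.2 (SE 0.182, edgeR adjusted p = 0.596) in shMETTL14, neither of which passed the threshold.

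CACNA1A (chr19:13206442-13633025, minus strand) encodes the pore of P/Q-type channels, which drive transmitter release at many central synapses. It had 5 and 2 reads in shCTR, 15 and 14 in shMETTL3 and 8 and 8 in shMETTL14. The 3 groups did not overlap, in the order shCTR, shMETTL14, shMETTL3. Its level was 0.179 ± 0.105 CPM in shCTR, 0.731 ± 0.0466 in shMETTL3 and 0.408 ± 0.000643 in shMETTL14 (SD, n = 2 each), and the last SD is small because both libraries held 8 reads. The log2 fold change was 1.98 (SE 0.58) in shMETTL3 against shCTR and 0.83 (SE 0.49) in shMETTL3 against shMETTL14. In shMETTL14 against shCTR it was 1.15 (SE 0.65, 95% interval −0.21 to 2.51, edgeR adjusted p = 0.33). Without shCTR replicate 1 the values against shCTR were 2.73 in shMETTL3 and 1.9 in shMETTL14, and without shCTR replicate 2 they were 1.5 and 0.67. By reads, shMETTL14 had 2.31 times those of shCTR (16 against 7, 95% exact counting interval 0.898 to 6.63).

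The remaining pore genes were close to absent at this depth. CACNA1B, the N-type pore of presynaptic terminals, had 1 and 1 reads in shCTR, 4 and 2 in shMETTL3 and 2 and 1 in shMETTL14. CACNA1E, the R-type pore, had 1 and 0, 0 and 4, and 0 and 3 reads in the same order. CACNA1C and CACNA1D encode L-type pores, the targets of dihydropyridine drugs and, for CACNA1C, the main route of calcium into heart muscle. CACNA1C had 0 and 1 reads in shCTR, 3 and 1 in shMETTL3 and 2 and 2 in shMETTL14, and CACNA1D had 0 and 0, 4 and 1, and 0 and 1. Of these 4 genes only the L-type CACNA1C lay higher in both shMETTL14 libraries than in both shCTR libraries, on 4 reads against 1. Any ratio between groups was wide: for CACNA1B, shMETTL14 had 1.51 times the reads of shCTR (3 against 2), with a 95% exact counting interval of 0.173 to 18.1. CACNA1D shares 1399 nt of exon sequence with CHDH on the opposite strand, a choline-oxidizing enzyme gene with 144 to 194 reads per library. How reads in that stretch were assigned depends on the strand setting, which is not given in the sources used here.

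CACNA2D2 (chr3:50362799-50504244, minus strand), an alpha2delta subunit that raises the current of several channel types, had the most reads of the 10. It had 36 and 36 reads in shCTR, 63 and 47 in shMETTL3 and 45 and 46 in shMETTL14. Both knockdowns lay above both control libraries, and the lower shMETTL3 library (47 reads) and the higher shMETTL14 library (46 reads) changed order once scaled to CPM. Its level was 1.85 ± 0.0415 CPM in shCTR, 2.77 ± 0.611 in shMETTL3 and 2.32 ± 0.0397 in shMETTL14 (SD, n = 2 each). The log2 fold change was 0.58 (SE 0.251) in shMETTL3 against shCTR, and 0.34 without shMETTL3 replicate 1, the library with 63 reads. In shMETTL14 against shCTR it was 0.32 (SE 0.258, 95% interval −0.22 to 0.86, edgeR adjusted p = 0.519), which did not pass the threshold. Between the knockdowns it was 0.26 (SE 0.242), and 0.02 without shMETTL3 replicate 1.

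Both CACNA2D1 and CACNA2D4, further alpha2delta genes, were among the 10. CACNA2D1, the binding protein of gabapentin, had 1 and 3 reads in shCTR, 2 and 0 in shMETTL3 and 0 and 1 in shMETTL14, and it was the one gene of the 10 with fewer reads in either knockdown than in shCTR. CACNA2D4, known from photoreceptors, had 2 and 0, 3 and 4, and 1 and 3 reads in the same order. The groups overlapped for CACNA2D1, and for CACNA2D4 only the shMETTL3 libraries lay above both control libraries.

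RefSeq (GRCh38.p14) gives CACNA2D2 a pair of start sites, and reads counted per gene cannot say which was used, so both promoters are shown, from 250 bases before the start to 50 after it, with each CG in capitals. The first lies at chr3:50503585-50503884 and the second at chr3:50504195-50504494, both on the minus strand. They are numbered by rising coordinate, so on this strand the second is the upstream one.
CACNA2D2, first: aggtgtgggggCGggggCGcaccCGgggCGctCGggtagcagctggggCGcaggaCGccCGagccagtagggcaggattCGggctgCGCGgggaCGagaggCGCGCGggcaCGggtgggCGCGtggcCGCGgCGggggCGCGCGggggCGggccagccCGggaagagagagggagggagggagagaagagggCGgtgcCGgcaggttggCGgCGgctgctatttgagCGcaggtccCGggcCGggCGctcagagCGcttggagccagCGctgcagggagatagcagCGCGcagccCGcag
CACNA2D2, second: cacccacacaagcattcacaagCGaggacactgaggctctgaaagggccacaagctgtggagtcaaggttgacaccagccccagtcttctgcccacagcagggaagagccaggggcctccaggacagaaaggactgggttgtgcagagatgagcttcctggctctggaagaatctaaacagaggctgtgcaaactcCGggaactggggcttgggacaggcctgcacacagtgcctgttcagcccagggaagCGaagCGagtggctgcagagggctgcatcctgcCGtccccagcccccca
The first promoter had a GC content of 77.3% and 39 CG, and the second 60.3% and 5 CG. Over the 35116 promoters of the same length the median was 58.7% GC and 14 CG, and 96% held at least 1 CG. Promoters were matched for 7 of the 10 genes, all but CACNA1G, CACNA1H and CACNA2D4.

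**Figure D2:**
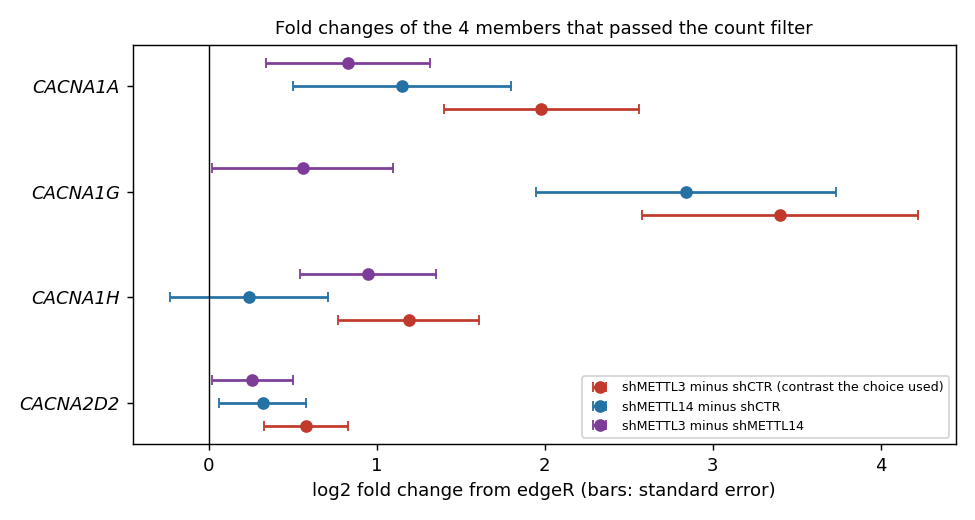
Log2 fold change (horizontal axis) with its standard error for the 4 genes that passed the count filter, in 3 contrasts. CACNA1G stood at 3.4 in shMETTL3 and 2.84 in shMETTL14 against shCTR, CACNA1H at 1.19 and 0.24, and CACNA2D2 at 0.58 and 0.32; the shMETTL3 contrast against shCTR is the one that chose the genes.

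Compared per length of transcript, in CPM per kb, CACNA2D2 was the highest of the 10 in shCTR at 0.338 ± 0.00758 (SD, n = 2), followed by CACNA1H at 0.0819 ± 0.0461 and CACNA1A at 0.0206 ± 0.0121. The gap between CACNA2D2 and CACNA1H was larger than either SD. CACNA2D1 (0.0137 ± 0.00992), CACNA2D4 (0.00853 ± 0.0121), CACNA1G (0.00622 ± 0.00879) and CACNA1B (0.00525 ± 0.000118) were within 1 SD of a neighbor in this order. CACNA1C and CACNA1E were at 0.00194 and 0.00156, and CACNA1D had no read in shCTR. In shMETTL3 the order was CACNA2D2 at 0.507, CACNA1H at 0.187, CACNA1A at 0.0843 and CACNA1G at 0.0742, with CACNA1G next to CACNA1A. In shMETTL14 it was CACNA2D2 at 0.423, CACNA1H at 0.0962, CACNA1G at 0.0501 and CACNA1A at 0.047.

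The other subunit genes were counted in the same way. Of 17 that were not among the 10, 5 were tested (CACNA1F, CACNA1I, CACNB1, CACNB2 and CACNB3) and edgeR called 0 against shCTR in either knockdown. Of all genes tested, 8.73% were called higher and 7.73% lower in shMETTL3, and 3.43% higher and 3.26% lower in shMETTL14. In shMETTL3 against shMETTL14, CACNA1I (log2 fold change 0.62, SE 0.176, edgeR adjusted p = 0.0242) and CACNB3 (0.74, SE 0.198, edgeR adjusted p = 0.0174) were higher in shMETTL3. CACNA1F, CACNB1 and CACNB2 did not pass the threshold there. Among these 5 the median log2 fold change was 0.21 in shMETTL3 and −0.2 in shMETTL14, beside 0.003 and −1e-04 over all genes tested. CACNB1, a beta subunit that binds the pore from inside the cell, had the highest level of the subunit genes, at 7.35 ± 0.344 CPM in shCTR, 8.48 ± 0.122 in shMETTL3 and 8.43 ± 0.527 in shMETTL14. CACNB3 had 75 and 67 reads in shCTR, 93 and 118 in shMETTL3 and 58 and 67 in shMETTL14, with a log2 fold change of 0.54 (SE 0.194, edgeR adjusted p = 0.063) in shMETTL3. None of the 8 gamma subunit genes had enough reads to test. Of 4 genes for small GTPases that inhibit these channels, GEM and REM2 were tested and neither passed the threshold. REM2 had 40 and 41 reads in shCTR, 17 and 35 in shMETTL3 and 21 and 35 in shMETTL14, a log2 fold change of −0.67 (SE 0.331, edgeR adjusted p = 0.184) in shMETTL3.

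**Figure D3:**
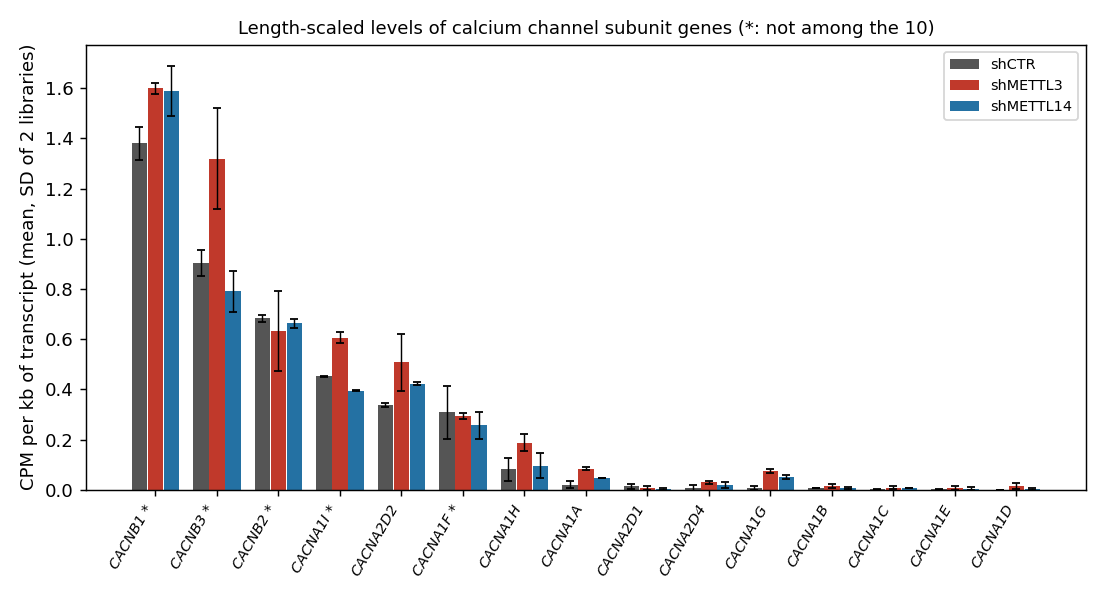
Levels in CPM per kb of the longest transcript (vertical axis) for the 10 genes and the 5 other tested subunit genes (starred), as the mean of 2 libraries with its SD; bars start at 0 and error bars are clipped there. CACNB1 was highest, CACNA2D2 was the one gene of the 10 near the starred genes, and CACNA1C, CACNA1D and CACNA1E were close to 0 in each group.

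The 10 genes shared long transcripts. The longest transcript ran from 5476 nt (CACNA2D2) to 16171 nt (CACNA1E), while the median of tested genes was 2983 nt. Most lay above the median GC content of tested genes, 48.2%, some of them by little. GC content was 66.1% in CACNA1H, 60.5% in CACNA1G, 58.8% in CACNA1A, 58.1% in CACNA2D2, 58% in CACNA1B and 55.3% in CACNA2D4. It was 52.5% in CACNA1C, 48.9% in CACNA1E, 47.9% in CACNA1D and 37.2% in CACNA2D1. Of the tested genes, 97.7% had a lower GC content than CACNA1H and 80.5% a lower one than CACNA2D2. Fold changes of all tested genes moved with GC content: across 5 equal bins, from the lowest to the highest GC content, the median log2 fold change ran from −0.08 to 0.12 in shMETTL3 and from −0.05 to 0.08 in shMETTL14. With a correction for GC content and length, the shMETTL3 values became 1.8 (SE 0.581) for CACNA1A, 3.21 (SE 0.828) for CACNA1G, 0.94 (SE 0.418) for CACNA1H and 0.46 (SE 0.252) for CACNA2D2. The shMETTL14 values became 1.08 (SE 0.649), 2.77 (SE 0.893), 0.14 (SE 0.469) and 0.27 (SE 0.259). Each stayed positive and was smaller than without the correction. The genes were chosen on shMETTL3 against shCTR, so nothing is read from the sign. The part of GC content in the channel values was not tested.

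**Figure D4:**
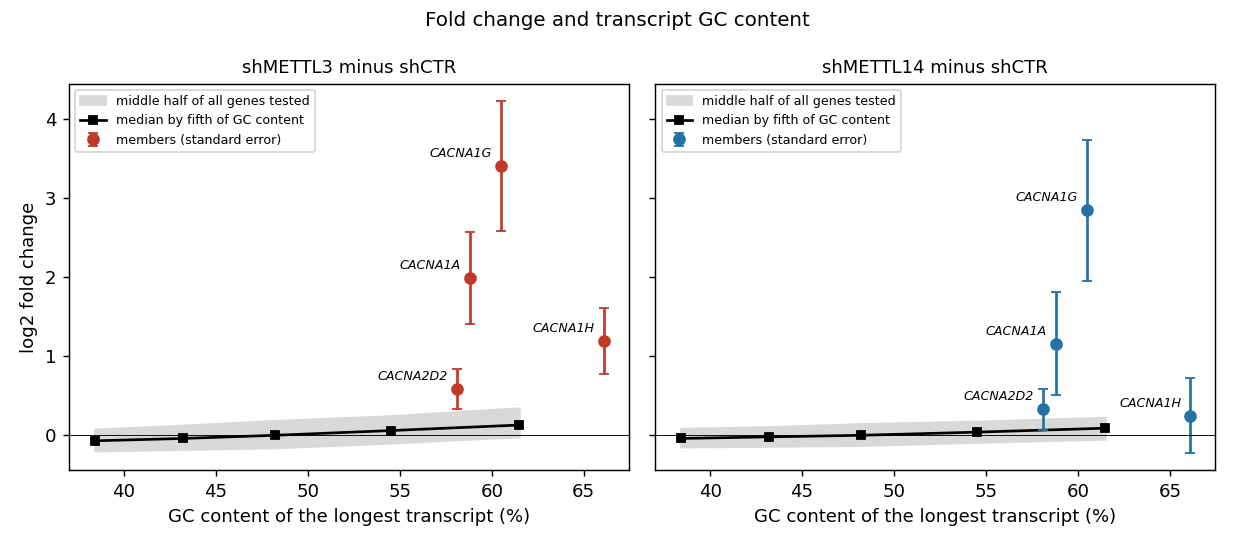
Log2 fold change (vertical axis) against GC content of the longest transcript in percent (horizontal axis), for shMETTL3 on the left and shMETTL14 on the right. Squares give the median of each of 5 equal bins of tested genes, the band their interquartile range, and colored points the 4 tested members with standard errors; the medians ran from −0.08 to 0.12 in shMETTL3, and the members' values from 0.58 to 3.4.

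All 4 tested members were below the median level of tested genes (15.8 CPM): 26.6% of tested genes had a lower mean CPM than CACNA2D2, 15% a lower one than CACNA1H, 2.19% than CACNA1A and 0.39% than CACNA1G. Markers of cells in which these channels are usually found were also counted. Of 7 neuron markers, SNAP25, ELAVL4, STMN2 and MAP2 had 0 reads in every library. The list's summed level was 0.759 and 0.418 CPM in shCTR, 1.53 and 1.59 in shMETTL3 and 1.37 and 0.816 in shMETTL14. It moved in the same order as the sum of the channel genes, as did the fibroblast and erythroid lists, so this order was not particular to neuron markers. SYT1, a synaptic vesicle calcium sensor, and SYN1, a vesicle protein, made up most of the list's level, with RBFOX3 the rest. SYT1 had 3 and 3 reads in shCTR, 11 and 15 in shMETTL3 and 12 and 8 in shMETTL14. Its log2 fold change was 2.04 (SE 0.609, edgeR adjusted p = 0.0259) in shMETTL3 and 1.68 (SE 0.64, edgeR adjusted p = 0.13) in shMETTL14. SYN1 had 7 and 4, 14 and 14, and 9 and 3 reads, and RBFOX3 5 and 1, 5 and 3, and 6 and 5. SYN1 did not pass the threshold in shMETTL3 (edgeR adjusted p = 0.123) or in shMETTL14 (0.949), where its libraries interleaved with shCTR. The part of these markers in the channel values was not tested. The fibroblast list was at 2.99 and 2.19 CPM in shCTR, 5.8 and 5.68 in shMETTL3 and 3.66 and 3.37 in shMETTL14, mostly the collagen gene COL1A1, and its part was not tested either. The endocrine list was at 2.73 and 1.93 CPM in shCTR, 2.95 and 4.34 in shMETTL3 and 3 and 2.96 in shMETTL14, so that both knockdowns lay above both controls, and its part was not tested. The muscle list was at 5.47 and 5.38 CPM in shCTR, 4.99 and 5.13 in shMETTL3 and 5.8 and 6.78 in shMETTL14.

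Among genes that overlap a member, 2 mRNA decapping genes and CHDH had far more reads than the member itself. DCP1A, which overlaps CACNA1D, had 711 and 663 reads in shCTR, 748 and 756 in shMETTL3 and 633 and 646 in shMETTL14. DCP1B, which overlaps CACNA1C, had 154 and 109, 151 and 128, and 179 and 156 reads in the same order, and neither shares exon sequence with the member. CACNA1G-AS1, which shares no exon sequence with CACNA1G, had 4 and 2 reads in shCTR, 0 and 1 in shMETTL3 and 1 and 1 in shMETTL14. CACNA2D1-AS1 had at most 1 read in a library. An unnamed transcript antisense to CACNA2D2, ENSG00000271858, shares 606 nt of exon sequence and had 2 reads in shCTR replicate 1, 1 in shMETTL14 replicate 1 and 0 elsewhere. TPSG1, a tryptase gene, shares 122 nt with CACNA1H and had 1 read in all, and the other overlapping genes with reads (SNORD38C, RNA5SP131, LRTM2, ENSG00000203987, ENSG00000259910, ENSG00000260403 and ENSG00000261294) had at most 2 reads in a library. By likeness over the 6 libraries, the tested genes closest to CACNA2D2 in log2 CPM were GMNN (Pearson r = 0.997), SHC1 (0.995) and BCR (0.985), of 17685 compared. As many as 169 genes had an r over 0.9, the 6 points being the same libraries for every gene.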

How the data were processed

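RNA-seq libraries of K562 cells (2 each of shCTR, shMETTL3 and shMETTL14) were grouped by the submitters' labels. Poly(A) RNA was captured on oligo(dT) beads. The authors deposited raw gene counts, not normalized, for 60675 Ensembl genes and 986 identifiers without a name. The latter took 0.635% to 0.703% of the reads and were kept in library totals. The submitters' processing notes name HTSeq 0.6.1 and hg38, while the aligner, annotation release and strand setting are not given in the sources used here. Identifiers were paired with symbols through a name table (56558) and GENCODE 29 (497).

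The test was edgeR 4.0.16 (R 4.3.3). Low genes were removed by filterByExpr (minimum count 10), leaving 17686, and after TMM scaling 1 quasi-likelihood fit of the 6 libraries was tested with Benjamini-Hochberg adjustment at 0.05. The fit was checked on simulated counts. The paper states no model for counts. The members and gene lists were chosen with earlier results of these data known. Groups were called not overlapping where this held in reads and in CPM. CPM alone was used first, and reads were added after ties of 1 read were seen to be split by scaling alone. Ratios of reads have exact (Clopper-Pearson) 95% intervals. Length, GC content and GGACT came from each gene's longest GENCODE transcript, for 16662 of the genes tested, and promoters from RefSeq.

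Genes named are the 10 members, METTL3 and METTL14, called genes of the calcium lists (up to 3 with the largest fold change per list, direction and knockdown), overlapping or antisense genes with reads, and the 3 genes most like CACNA2D2. CACNA1I, CACNB1, CACNB3, REM2, the marker genes and the other uncalled subunit genes were named after their values were seen. Alternatives were DESeq2 1.42.0, other scalings, no filter, a fit of 2 groups, a replicate block, a GC and length correction (mgcv 1.9.3) and each library left out. A planned look at pore-loop residues of the proteins was not done here.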

Additional observations from a re-analysis of the deposited data

How the results depend on the processing

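Directions and calls of the 4 tested members held under most alternatives. In shMETTL14 against shCTR, 52 of their values kept direction, and those of them with an adjusted p kept their side of the threshold. The 52 include the DESeq2 values of CACNA1A, CACNA1G and CACNA1H, which had no adjusted p. CACNA1H reversed to −0.25 without shCTR replicate 1 and to −0.39 without shMETTL14 replicate 2, its highest value with 1 library left out being 0.95. No member was called there under any alternative, although DESeq2 gave CACNA1A, CACNA1G and CACNA1H no adjusted p, and the fit of those 2 groups alone could not test CACNA1A and CACNA1G. In shMETTL3 against shCTR no fold change reversed, 50 values moved by less than the spread between libraries and 6 by more. That contrast chose the genes and the alternatives reuse the same libraries, so no support is drawn from the kept directions. All genes called in shMETTL14 numbered 1184, and 772 with DESeq2, 766 without the filter, 2165 with the replicate block and GC correction together, and 341 to 1913 with 1 library left out, the lowest without shMETTL14 replicate 1 (397 without replicate 2) and the highest without shCTR replicate 2. The 8 other calcium genes called in shMETTL14 became 5 with DESeq2, 3 without the filter and 0 to 7 with 1 library left out (0 without shMETTL14 replicate 2, 1 without replicate 1). The 13 called in shMETTL3 became 20 with the replicate block and GC correction together and 8 to 13 with 1 library left out (8 without shMETTL3 replicate 1). The 3 members higher in both shMETTL3 than in both shMETTL14 libraries became 3 to 8 with 1 library left out: 5 without shMETTL3 replicate 1, 8 without shMETTL3 replicate 2 and 6 without shMETTL14 replicate 2, since fewer libraries had to be separated. The 7 higher than in shCTR, in the contrast that chose the genes, became 7 to 8. Judged on CPM alone, the rule used first, these counts were 3 and 7, but with scaling by library size alone the 3 became 7, against 4 with reads required too; over all Ensembl genes with a read, CPM alone gave 18.7%, 17.1% and 18.1% higher in shMETTL3 against shCTR, shMETTL14 against shCTR and shMETTL3 against shMETTL14. The replicate block alone gave 1459 genes called in shMETTL14, 0 members and 14 and 8 calcium genes; same-numbered libraries did not deviate together (r = 0.061, 0.005 and −0.02), so they share only a number. Where an alternative leaves a group with 1 library, that library is assumed to vary like the others. The causes of these shifts were not tested. With 2 libraries a group and at most 63 reads of a member in any library, the depth limits each statement on single members.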

Other observations

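Outside the channels, some genes of calcium stores, pumps and effectors passed the test. Over all 17686 genes tested, 8.73% were called higher and 7.73% lower in shMETTL3, and 3.43% higher and 3.26% lower in shMETTL14, and the counts of the lists stand beside these shares without a test of a list. Of 13 genes for store release and store-operated entry, all were tested, and edgeR called 4 higher and 0 lower in shMETTL3 and 4 higher and 1 lower in shMETTL14. RYR1, a calcium release channel of the endoplasmic reticulum, rose in shMETTL3 (21.6 ± 1.99 against 13.8 ± 0.598 CPM, SD, n = 2, edgeR adjusted p = 0.000493). ORAI2, a pore of store-operated entry, rose in shMETTL3 (59.2 against 40.6 CPM, adjusted p = 2.49e-05) and in shMETTL14 (49.2 CPM, adjusted p = 0.0218). ITPR2, an inositol trisphosphate receptor, rose in shMETTL3 (46.3 ± 0.268 against 33.7 ± 4.7 CPM, adjusted p = 0.00117) and in shMETTL14 (44.4 CPM, adjusted p = 0.00781), STIM2, a sensor of store filling, rose in shMETTL14 (61.7 against 50.8 CPM, adjusted p = 0.0158), and RYR2 fell there (34.1 against 43.3 CPM, adjusted p = 0.0255). The comparisons share the shCTR libraries. Over all these calcium lists, the 8 calls in shMETTL14 became 5 with DESeq2 and 3 without the filter on low counts. Most were also lost when either shMETTL14 library was left out, so each single call in shMETTL14 is tentative. In the test of shMETTL3 against shMETTL14 itself, RYR2 (edgeR adjusted p = 0.000161), ORAI2 (0.0135) and RYR1 (0.0176) were higher in shMETTL3 and STIM2 (0.000848) was lower, while ITPR2 (0.716) did not pass the threshold.

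Of 13 tested pumps, exchangers and mitochondrial carriers, 3 were called higher in shMETTL3 and 1 lower in shMETTL14. ATP2A3, a pump that refills the stores, rose from 401 ± 38.2 to 639 ± 19.2 CPM in shMETTL3 (SD, n = 2, edgeR adjusted p = 8.4e-07), and MCUB, a subunit that dampens mitochondrial uptake, rose from 11.5 to 17.1 CPM (adjusted p = 0.00258). ATP2B3, a plasma membrane pump, was called higher from 0.0506 CPM in shCTR to 0.553 CPM in shMETTL3 (edgeR adjusted p = 0.0308), at a level like that of CACNA1G. It had 2 and 0 reads in shCTR, 10 and 12 in shMETTL3 and 7 and 0 in shMETTL14. Only its shMETTL3 libraries reached the minimum count of 10, and the fold change rests on 2 control reads, so little is read from this call. ATP2B4, another plasma membrane pump, fell in shMETTL14 (39.6 against 49 CPM, adjusted p = 0.0233). Of 24 tested calcium effectors, 5 were called higher and 1 lower in shMETTL3, and 1 higher and 1 lower in shMETTL14, the latter close to the shares over all genes. RASGRP3, an activator of Ras and Rap, rose in shMETTL3 (2.92 ± 0.186 against 1.16 ± 0.0104 CPM, edgeR adjusted p = 0.00213), as did NFATC4 (44 against 32.5 CPM, adjusted p = 0.000493). CAMK1D, a calmodulin-dependent kinase, rose in shMETTL3 (3.28 against 1.67 CPM, adjusted p = 0.01) and in shMETTL14 (3.72 CPM, adjusted p = 0.0056). CALM2, a calmodulin gene, fell in shMETTL3 (240 against 273 CPM, edgeR adjusted p = 0.0387). RASGRP2 fell in shMETTL14 (36.4 against 43.7 CPM, edgeR adjusted p = 0.0452) but rose in shMETTL3 (55.7 CPM, edgeR adjusted p = 0.00298). Over these lists and the other channel genes, 57 were tested: shMETTL3 had 12 calls upward and 1 downward, and shMETTL14 had 5 upward and 3 downward, beside 8.73% and 7.73%, and 3.43% and 3.26%, of all genes tested.

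Of the remaining marker lists, the lymphoid list was at 2.73 and 2.56 CPM in shCTR, 3.87 and 3.59 in shMETTL3 and 1.78 and 2.86 in shMETTL14. Its shMETTL3 libraries were the highest, as for the sum of the channel genes, and its part in the channel values was not tested. The myeloid list moved apart from the channel genes, at 42.7 and 44.4 CPM in shCTR, 17.4 and 16 in shMETTL3 and 60.5 and 66 in shMETTL14, nearly all LYZ.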
